A study of Mus musculus with 11 samples.

Results

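The 10 genes described here encode the MHC class II pathway: the chains H2-Aa, H2-Ab1 and H2-Eb1, the peptide-exchange chains H2-DMa, H2-DMb1 and H2-DMb2, the modulator chain H2-Oa, the invariant chain Cd74, the transcriptional regulator Ciita and the protease Ctss. They were chosen by name from the 52550 genes listed in the deposited table, and Cd207, which encodes langerin, was taken as a trace of Langerhans cell (LC) RNA. RNA-seq of poly-A RNA was performed on keratinocytes (KCs) and dendritic epidermal T cells (DETCs) sorted from the flank epidermis of female huLangerin-DTA mice (LC-/-, labelled DTA) and littermate wild type (WT) mice, all 8 weeks old. KC libraries numbered 3 in WT and 3 in LC-/-, and DETC libraries 3 in WT and 2 in LC-/-, so 11 in all, with 13491075 to 19750440 reads on genes in each. In huLangerin-DTA mice a human langerin promoter drives the A subunit of diphtheria toxin, and LCs are missing from birth, so both populations developed without them. Both sorts took live single cells negative for MHC-II, langerin and c-kit, KCs from the CD45- gate and DETCs from the CD45+ gate, and therefore excluded cells with MHC class II protein on their surface. Replicates are numbered by the rank of the second number in their titles within each genotype, and the DETC libraries of LC-/- mice are replicates 2 and 3. The study calls each library of a population a separate animal, while the labels do not say whether KC and DETC libraries that carry 1 number share an animal.

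MHC class II molecules are pairs of an alpha and a beta chain that present peptides from endosomes to CD4+ T cells. The invariant chain fills the binding groove of new molecules, cathepsin S trims it, and H2-DM then exchanges the remaining fragment for peptide while H2-O restrains H2-DM. In the epidermis class II genes are known as genes of LCs, and Ciita is the regulator that switches most of them on, through a complex of RFX, CREB and NF-Y factors bound to a conserved X-Y module in their promoters. Mouse T cells such as DETCs are known to lack surface class II protein.

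Promoter stretches of H2-Aa, H2-Eb1, H2-DMb2 and H2-Oa are shown for a sequence they share, and were not chosen by how these genes changed. The 57 bases that end in TGATTGG, the letters of an inverted CCAAT box, were read 5′ to 3′ on the strand of the gene from RefSeq promoter windows (GRCm38.p6), which run from 250 bases before to 50 after the annotated start. Capitals mark TGATTGG and, where present, the X box core. The X box core here means a match to a fixed 10-base pattern that leaves some positions free. Variants of this pattern were not searched for. Lower case therefore does not show that a stretch, such as that of H2-Aa or H2-DMb2, lacks an X box.
H2-Aa: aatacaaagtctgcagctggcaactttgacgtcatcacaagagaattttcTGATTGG
H2-Eb1: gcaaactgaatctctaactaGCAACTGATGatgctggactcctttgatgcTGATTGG
H2-DMb2: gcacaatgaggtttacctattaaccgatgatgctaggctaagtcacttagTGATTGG
H2-Oa: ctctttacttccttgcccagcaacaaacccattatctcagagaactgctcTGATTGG
These stretches lie at chr17:34287867-34287923 (minus strand) for H2-Aa, chr17:34305756-34305812 for H2-Eb1, chr17:34145107-34145163 for H2-DMb2 and chr17:34092284-34092340 for H2-Oa, the last 3 on the plus strand. TGATTGG was also found in the window of H2-DMb1, 63 bases before the RefSeq start and inside the first GENCODE exon. On either strand it occurred in 7.82% of all 32851 windows, the X box core in 2.97%, and both in 0.231%. Among the members, windows with both were those of H2-Eb1, H2-DMb1 and H2-Oa, and in H2-Oa the X box core lay 140 bases before the start, outside the stretch shown. No TGATTGG was found in the windows of H2-DMa or Ctss, and CCAAT on either strand, which TGATTGG contains in reverse, occurred in 37.4% of all windows. The letters TGATTGG were chosen after the windows had been seen. The windows of H2-Ab1, Ciita and Cd74 were not analysed here.

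The values are read counts per gene divided by a size factor of the library, called normalized counts. LC-/- and WT libraries were compared within each population by limma on log2 of the normalized count plus 1, and genes with a Benjamini-Hochberg adjusted p under 0.05 over all 14419 tested genes are called higher or lower. Of the 10 members, 8 passed the filter of a CPM above 1 in at least 2 libraries, while H2-DMb2 and Ciita did not. The sorted populations carried their markers, with Krt5 at 100564 to 122907 in KC libraries and the T cell receptor gene Trdc at 23250 to 39123 in DETC libraries. Trdc reached at most 2.05 in KC libraries, but Krt5 was at 17238 to 22528 in DETC libraries. Over 8 keratinocyte genes the median level of a DETC library was 14.6% to 17.7% of the KC mean of its genotype in 4 libraries and 24.3% in LC-/- replicate 2. In these bulk samples fewer cells of a type and less RNA per cell cannot be told apart.

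On GRCm38 the 7 members of the H2 complex lie on chromosome 17, from the start of H2-Oa at 34092340 to the end of H2-Eb1 at 34316674. Ciita lies on chromosome 16 (10480059 to 10528418), Ctss on chromosome 3 (95526786 to 95556403) and Cd207 on chromosome 6 (83671215 to 83677857). Cd207 was present in every WT library at a low level. WT KCs held normalized counts of 6.15, 26.9 and 15.6, from 53 reads together, and 0 in all 3 LC-/- KC libraries. In DETCs they were 21.8, 16.5 and 46.7 in WT and 0 and 4.42 in LC-/-, the last from 4 reads in replicate 3. Every LC-/- library lay below every WT library of its population. A count of 0 allows up to 3 reads, so Cd207 was at least 4.90-fold lower in LC-/- KCs, which covers counting error only.

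**Figure D1:**
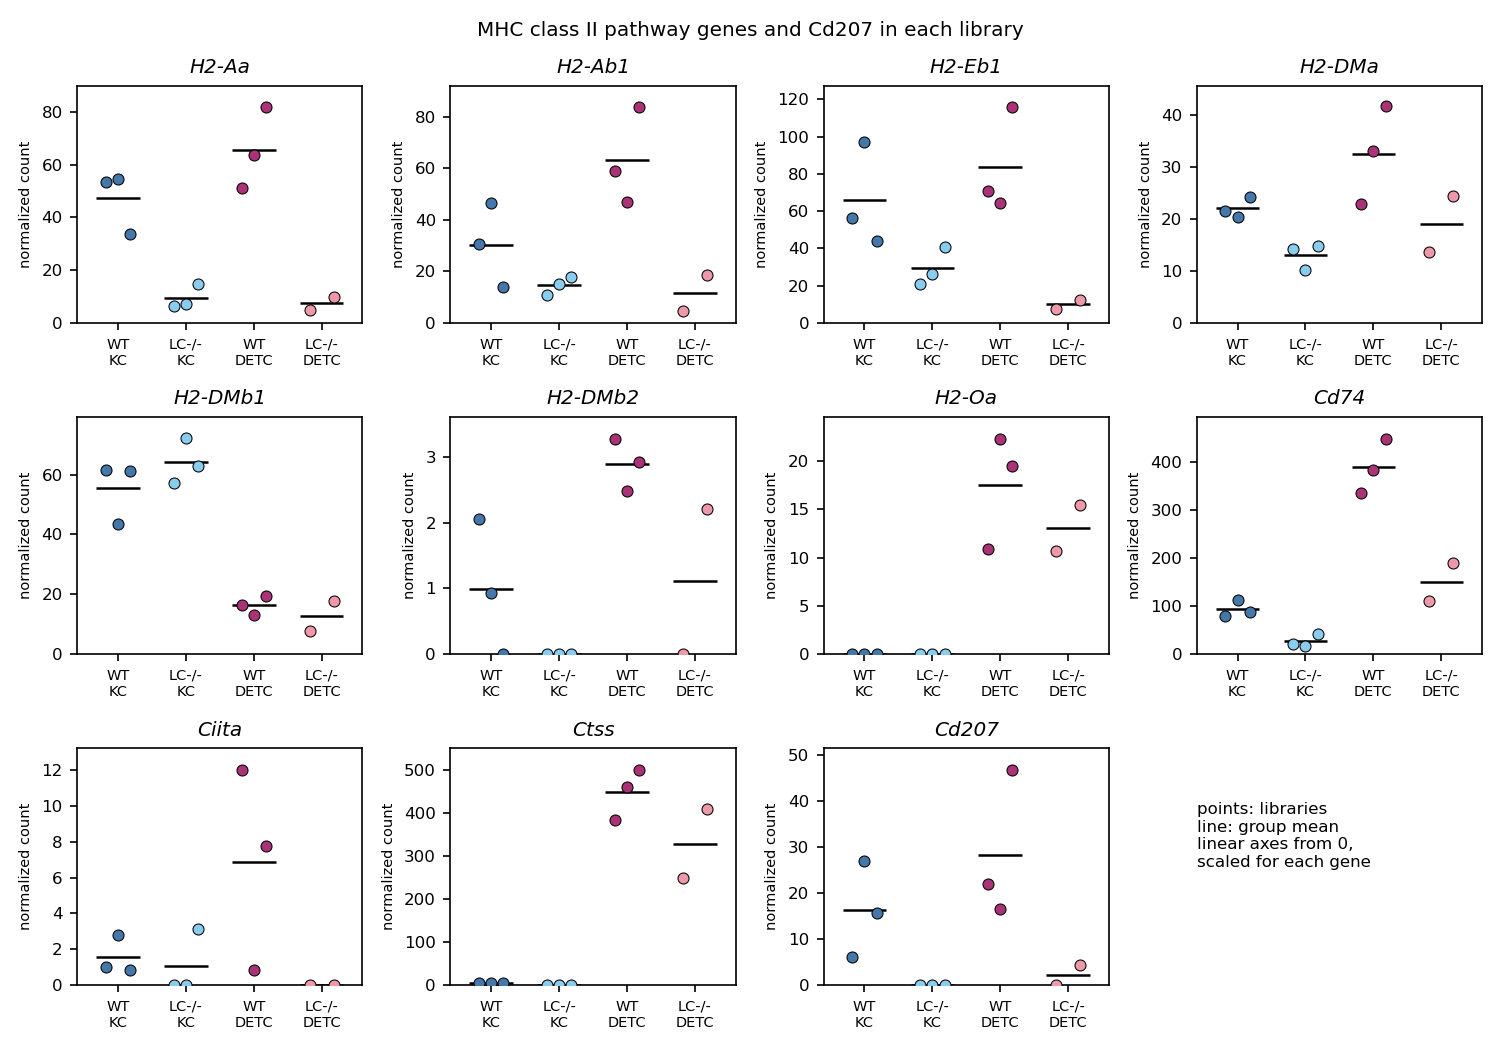
Normalized counts of the 10 MHC class II pathway genes and Cd207 in the 11 libraries, with a point for each library, a line for the group mean and a linear axis for each gene. H2-Aa, H2-Eb1 and Cd74 lie lower in every LC-/- library than in every WT library of the same population, whereas the levels of H2-DMb1 overlap in both populations.

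The chains of the classical class II molecules had the largest negative log2 changes among the tested members in DETCs. H2-Aa, the alpha chain of I-A, had normalized counts of 51.3, 63.5 and 81.7 in WT DETCs and of 4.85 and 9.95 in LC-/- DETCs. The groups did not overlap, and the log2 change was -3.03 ± 0.38 (SE, limma adjusted p = 0.0138). H2-Eb1, the beta chain of I-E, was at 70.9, 64.4 and 116 in WT and at 7.77 and 12.2 in LC-/- DETCs. It too had every LC-/- library below every WT library, with a log2 change of -2.93 ± 0.35 (SE, limma adjusted p = 0.0124). H2-Ab1, the beta chain that pairs with H2-Aa, was at 58.9, 47.0 and 83.6 in WT and at 4.85 and 18.8 in LC-/- DETCs. Its groups did not overlap either, and its log2 change was -2.54 ± 0.52 (SE, limma adjusted p = 0.0428). LC-/- DETCs thus retained 11.3% of the WT mean of H2-Aa, 11.9% of H2-Eb1 and 18.7% of H2-Ab1, against 7.80% of Cd207. The call of H2-Ab1 was lost without LC-/- DETC replicate 2 (adjusted p = 0.120) and without any 1 of the 3 WT libraries. That of H2-Aa was lost without WT replicate 2 or 3 and that of H2-Eb1 without WT replicate 3, over ranges of the adjusted p of 7.86e-07 to 0.179 for H2-Aa, 1.79e-07 to 0.179 for H2-Eb1 and 5.69e-04 to 0.189 for H2-Ab1 across the alternatives.

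In KCs the mean level retained differed among the 3 chains, which was not tested between them. H2-Aa was at 53.3, 54.7 and 33.7 in WT KCs and at 6.61, 7.13 and 14.7 in LC-/- KCs. The groups did not overlap, and H2-Aa was called lower with a log2 change of -2.25 ± 0.36 (SE, limma adjusted p = 0.0336). H2-Eb1 was at 56.4, 97.4 and 44.1 in WT and at 20.9, 26.5 and 41.0 in LC-/- KCs. Although its lowest WT library lay just above its highest LC-/- library, its log2 change of -1.11 ± 0.39 (SE, limma adjusted p = 0.149) was not called. DESeq2 (adjusted p = 0.0104) and edgeR (0.0320) on the recovered reads did call it, within a range of 0.0104 to 0.312. H2-Ab1 was at 30.7, 46.4 and 13.8 in WT and at 11.0, 15.3 and 17.9 in LC-/- KCs. Its groups overlapped through WT replicate 3, and its log2 change of -0.87 ± 0.47 (SE, limma adjusted p = 0.303) was not called. The levels retained in LC-/- KCs were 20.1% for H2-Aa, 44.7% for H2-Eb1 and 48.5% for H2-Ab1. H2-Aa did not stay called in any of the 6 fits that omitted a KC library, where the adjusted p lay between 0.0639 and 0.115 (0.000829 to 0.115 over the alternatives).

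Per length, H2-Aa made up a smaller share of the 3 chains in LC-/- than in WT KCs, and a difference between the chains was not tested. Of the reads per kilobase on H2-Aa, H2-Ab1 and H2-Eb1 together, H2-Aa made up 25.5%, 17.5% and 24.0% in WT KCs and 10.4%, 8.75% and 12.1% in LC-/- KCs. The groups did not overlap. H2-Eb1 took the largest share in every KC library, with 52.7% to 61.4% in WT and 63.5% to 66.1% in LC-/- KCs. In DETCs H2-Aa made up 18.5%, 24.5% and 18.9% in the WT libraries, against 17.8% and 16.2% without LCs. In LC-/- DETC replicate 3 H2-Ab1 made up 45.2% of the 3 chains, against 26.4% to 31.5% in the other 4 DETC libraries. That share rests on 9, 17 and 11 reads of H2-Aa, H2-Ab1 and H2-Eb1, and those of LC-/- replicate 2 on 5, 5 and 8. In LC-/- KCs the shares of H2-Aa rest on 6, 7 and 14 of its reads. Counting error of the shares was not computed.

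Cd74, which was the most abundant member per length in WT KCs, lies on chromosome 18 (60803848 to 60812652) and was lower without LCs in both populations. In KCs its normalized counts were 79.9, 112 and 87.3 in WT and 20.9, 17.3 and 42.0 in LC-/-. The groups were well apart, with a log2 change of -1.85 ± 0.36 (SE, limma adjusted p = 0.0470), and 28.7% of the WT mean was retained. In DETCs Cd74 was at 336, 383 and 448 in WT and at 111 and 190 in LC-/-. There the groups did not overlap either, the log2 change was -1.41 ± 0.23 (SE, limma adjusted p = 0.0253), and 38.7% was retained. On the scale of the normalized count, the lower LC-/- DETC library lay just under the highest WT KC library and the other above all 3. The call was lost in each fit without 1 KC library in KCs (adjusted p = 0.0669 to 0.141) and in 4 of the 5 fits without 1 DETC library in DETCs, the exception being LC-/- replicate 3. Across alternatives, adjusted p spanned 6.35e-07 to 0.141 in KCs and 5.97e-06 to 0.180 in DETCs.

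The H2-DM genes, which encode the peptide-exchange factor, were not called in either population. H2-DMa was at 21.5, 20.4 and 24.2 in WT KCs and at 14.3, 10.2 and 14.7 in LC-/- KCs. Every LC-/- KC library was lower, but the log2 change of -0.72 ± 0.17 (SE, limma adjusted p = 0.0721) was not called. In DETCs H2-DMa was at 22.9, 33.0 and 41.8 in WT and at 13.6 and 24.3 in LC-/-, and the groups overlapped (log2 fold change -0.76, adjusted p = 0.337). H2-DMa shares 360 exonic bases with Brd2 on the opposite strand, and whether strand was used in counting is not given in the sources used here. H2-DMb1 was at 61.5, 43.6 and 61.4 in WT KCs and at 57.3, 72.3 and 63.0 in LC-/- KCs, so 116% of the WT mean was retained. The groups overlapped, and the log2 fold change was 0.22 (95% confidence interval -0.25 to 0.69, adjusted p = 0.511 by limma). In DETCs H2-DMb1 was at 16.4, 13.2 and 19.4 in WT and at 7.77 and 17.7 in LC-/-. These groups overlapped as well, with a log2 fold change of -0.42 (adjusted p = 0.665 by limma) that turned to 0.12 without LC-/- replicate 2. H2-DMb2, a close copy of H2-DMb1, had 3 reads over the WT and 0 over the LC-/- KC libraries and 9 over the WT and 2 over the LC-/- DETC libraries, and was not tested. Reads of these copies can be split between them by the counting.

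H2-Oa, whose product restrains H2-DM and is best known from B cells, was found in DETC libraries only. Its reads were 0 in all 6 KC libraries. Normalized counts in DETCs were 10.9, 22.3 and 19.4 in WT and 10.7 and 15.5 in LC-/-, which retained 74.5% of the WT mean. The groups overlapped, and the log2 change was -0.36 ± 0.43 (SE, limma adjusted p = 0.705). Its partner chain H2-Ob had 8 reads over the WT and 1 over the LC-/- DETC libraries. Of 5 B cell genes, the summed level ran from 17.3 to 22.9 in WT and from 15.5 to 21.4 in LC-/- DETC libraries with Ms4a1 at 0 in all 5, and their part in the H2-Oa level was not tested. H2-Oa shares 321 exonic bases with the antisense gene BC051537.

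Ctss, the protease, and Ciita, the regulator, are the members set apart from the chains by role. Ctss was at 383, 460 and 500 in WT DETCs and at 249 and 409 in LC-/- DETCs, where 73.4% was retained. The groups overlapped through LC-/- replicate 3, and the log2 fold change of -0.48 (95% confidence interval -0.97 to 0.01, adjusted p = 0.276 by limma) was not called. In KCs Ctss was near the floor, with 4.10, 5.57 and 4.32 in WT (15 reads together) and 0 in all 3 LC-/- libraries. limma called it lower (adjusted p = 0.00593), and set against a floor of 3 reads per library the level was at least 1.41-fold lower. The call was lost without LC-/- KC replicate 1 (adjusted p = 0.0506, range 0.000604 to 0.0506). Ciita was at 12.0, 0.825 and 7.78 in WT DETCs, 20 reads together, and at 0 in both LC-/- DETC libraries, at least 2.07-fold lower with the same floor. Without WT replicate 1, a setting added after the values had been seen, the bound was 1.30-fold, and WT replicate 2, at 1 read, was itself below the floor. In KCs it was at 1.02, 2.78 and 0.864 in WT and at 0, 0 and 3.15 in LC-/-, so the groups overlapped at 5 and 3 reads. Ciita did not pass the filter and was not tested, and 329 of its exonic bases are shared with Dexi on the opposite strand.

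In KCs 3 of the 7 members with reads that were tested were called lower (H2-Aa, Cd74 and Ctss) and 0 higher. Over all tested genes 1.85% were called lower and 5.37% higher. The median log2 fold change of the 7 was -1.11, against -0.01 over all genes. In DETCs 4 of 8 were called lower (H2-Aa, H2-Eb1, H2-Ab1 and Cd74) and 0 higher, where 0.430% of all tested genes were called lower and 3.13% higher. The median of the 8 was -1.09, against 0.02 over all genes. Without a mean-variance trend limma called 0 of the 8 in DETCs, and 0 of all genes, while the same 4 had an unadjusted p under 0.05. DESeq2 and edgeR on the recovered reads each called these 4 in DETCs. In KCs edgeR called H2-Aa, Cd74, Ctss and H2-Eb1, while DESeq2 gave an adjusted p for 3 of the 7 and called Cd74 and H2-Eb1. H2-Aa and Ctss were among those without one.

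**Figure D2:**
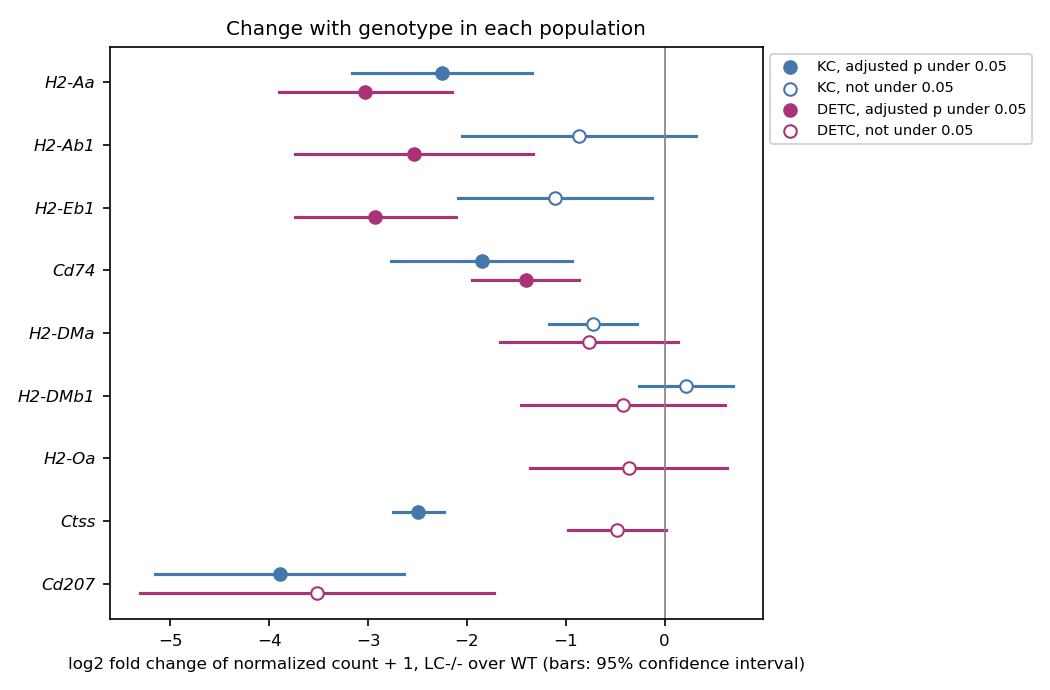
Log2 fold change of the normalized count plus 1 in LC-/- over WT for the tested members and Cd207, in KCs (blue) and DETCs (red), with 95% confidence intervals from limma as bars and filled points for an adjusted p under 0.05. H2-Aa and Cd74 are filled in both populations, H2-Ab1 and H2-Eb1 in DETCs only, and the interval of H2-DMb1 spans 0 in both. The fitted values of Ctss and Cd207 in KCs depend on the pseudocount, since their LC-/- libraries are all at 0.

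**Figure D3:**
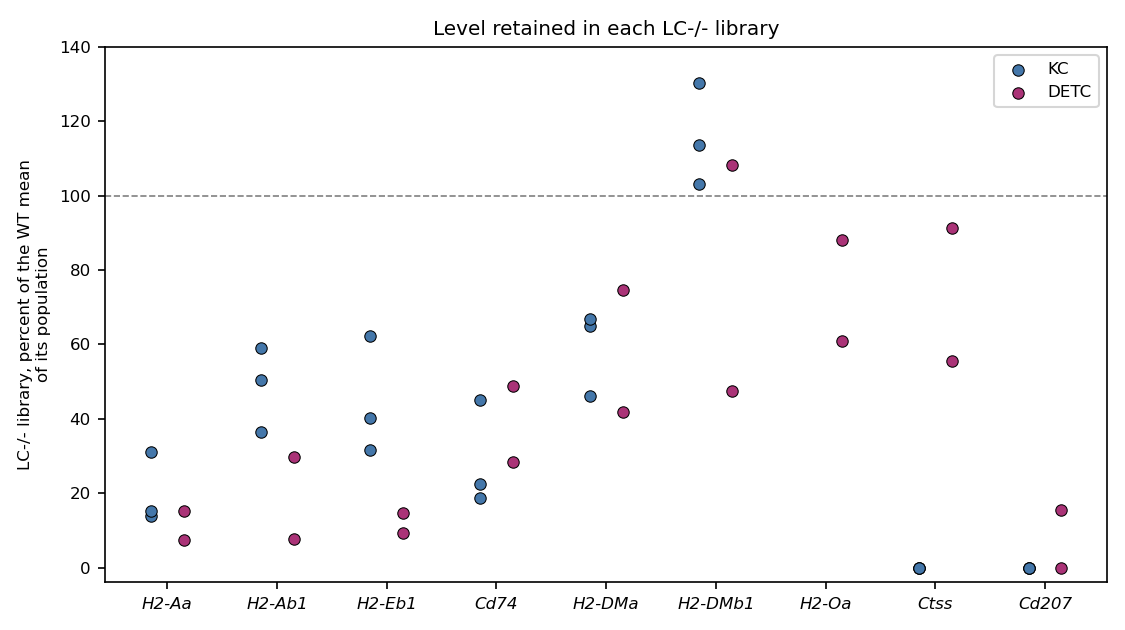
Normalized count of each LC-/- library as a percent of the WT mean of its population, with KC libraries in blue and DETC libraries in red and a dashed line at 100%. The DETC libraries lie at 7.41% to 29.7% for H2-Aa, H2-Ab1 and H2-Eb1 and at 55.5% and 91.4% for Ctss, and H2-DMb1 lies at 103% to 130% in KCs.

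Whether the change with genotype differed between the populations was tested with an interaction term over all 11 libraries. Among the 8 members only Ctss was called, with a log2 difference of 2.01 (standard error 0.37, adjusted p = 0.0299 by limma), in the direction of a smaller fall in DETCs. Over all tested genes 0.617% were called in that direction and 0.180% in the other. The value rests on KC libraries with 0 to 6 reads of Ctss. The fold there is known only as a bound that leaves at most 70.9% of the WT mean, against 73.4% retained in DETCs. That bound allows 3 reads in each LC-/- KC library, so it is wide and does not decide whether the fold differed. With a pseudocount of 8 the log2 difference of Ctss was 0.19 (adjusted p = 0.856 by limma, range 0.0102 to 0.856). H2-Eb1 (-1.82, adjusted p = 0.167), H2-Ab1 (-1.67, 0.411) and H2-Aa (-0.78, 0.667) had log2 differences towards a larger fall in DETCs that did not pass the threshold, so a difference between the populations was not shown for the chains. That of Cd74 was 0.44 (adjusted p = 0.790).

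The level of each member relative to Ctss and Ciita was compared between genotypes within each population. In DETCs the log2 ratio of H2-Aa to Ctss averaged -2.77 ± 0.15 in WT (SD, n = 3) and -5.32 ± 0.13 in LC-/- (SD, n = 2), a difference of -2.55. For H2-Eb1 the difference was -2.45, for H2-Ab1 -2.06 and for Cd74 -0.93, each without overlap of the genotypes, and for H2-DMb1 it was 0.06 with overlap. H2-DMa, with a difference of only -0.28, had no overlap either. An exact two-sided permutation test of 3 against 2 libraries cannot go below p = 0.2. That value was reached by H2-Aa, H2-Eb1, H2-Ab1 and Cd74, and also by H2-DMa. In KCs Ctss was at 0 in LC-/- libraries, so its ratios there rest on the pseudocount. Ciita was at 0 in both LC-/- DETC libraries and at 1 read in WT DETC replicate 2, and ratios to it are not given for the same reason.

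The members were next set against Cd207 in WT libraries, where Cd207 had reads. Per read of Cd207 in the pooled WT libraries there were 2.83 reads of H2-Aa in KCs (95% exact interval 2.06 to 3.95) and 2.36 in DETCs (1.83 to 3.07). H2-Ab1 had 1.81 in KCs (1.28 to 2.58) and 2.24 in DETCs (1.73 to 2.91). H2-Eb1 had 3.98 in KCs (2.93 to 5.49) and 2.98 in DETCs (2.33 to 3.84). The intervals, which cover counting error only, overlapped between the populations for each of the 3 chains, and also for H2-DMa, with 1.34 in KCs and 1.18 in DETCs. For Ctss and H2-DMb1 the intervals were apart, as were those of Cd74, although its single libraries overlapped. Cd74 had 5.66 reads per Cd207 read in KCs (4.22 to 7.73) and 14.0 in DETCs (11.3 to 17.6), Ctss 0.283 and 16.2, and H2-DMb1 3.36 and 0.580. The intervals of H2-Oa were apart too, at 0 in KCs (0 to 0.0721), where it had 0 reads, and 0.648 in DETCs (0.456 to 0.914). The intervals of the sparse H2-DMb2 and Ciita overlapped. Single libraries varied more than these intervals, as KC replicate 1 with its 6 reads of Cd207 had 8.67 reads of H2-Aa per read and the others 2.03 and 2.17. Over libraries the exact two-sided permutation p of the log2 ratio was 0.7 for H2-Aa, H2-Ab1 and H2-DMa and 0.5 for H2-Eb1. By the same test it was 0.2 for Cd74 and 0.1 for Ctss, H2-DMb1 and H2-Oa, where 0.1 is the smallest that 3 against 3 allows. The log2 ratio of H2-Oa in KCs rests on the pseudocount.

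**Figure D4:**
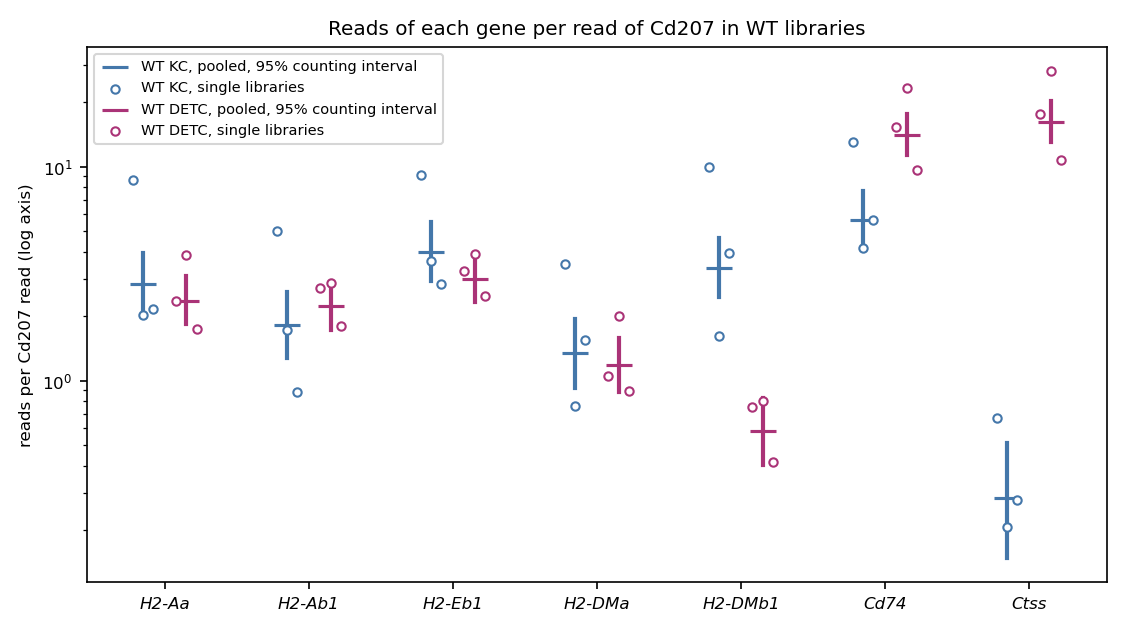
Reads of each gene per read of Cd207 in WT KC (blue) and WT DETC (red) libraries on a log axis, with bars for the pooled ratio and its 95% exact counting interval and open points for single libraries. The intervals of both populations overlap for H2-Aa, H2-Ab1, H2-Eb1 and H2-DMa and are apart for H2-DMb1, Cd74 and Ctss.

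The WT library highest for Cd207 was also highest for many members. WT KC replicate 2 had the most Cd207 and was the highest WT KC library for 6 of the 9 members with reads there, namely H2-Aa, H2-Ab1, H2-Eb1, Cd74, Ciita and Ctss. WT DETC replicate 3 had the most Cd207 of its group and was the highest for 7 of 10 members, the exceptions being H2-DMb2, H2-Oa and Ciita. Below the highest library the orders differed. WT KC replicate 1 had the least Cd207 of its group but more H2-Aa, H2-Ab1 and H2-Eb1 than replicate 3, and WT DETC replicate 2 had the least Cd207 but more H2-Aa than replicate 1. LC-/- DETC replicate 3, which kept 4 reads of Cd207, was above replicate 2 for all 9 members with reads. The fold ran from 1.45 for H2-Oa to 3.87 for H2-Ab1. H2-DMb2 has no fold, with 0 reads in replicate 2 and 2 in replicate 3. LC-/- KC replicate 3 had 0 reads of Cd207 and was the highest LC-/- KC library for 6 of 7 members, all but H2-DMb1. Some of these counts rest on few reads, with 3 of Ciita and 6 of Ctss in WT KC replicate 2. The share of all genes highest in each library was not computed, so these counts are not read as a trait of the members.

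Across the genes, the pattern over libraries most like that of the classical chains was sought by the Pearson correlation with the mean log2 value of H2-Aa, H2-Ab1 and H2-Eb1, after centring each population, over the 11 libraries and 14414 genes. The 5 closest genes outside the lists were Mrc2 (0.971), Mettl9 (0.955), Rpap3 (0.952), Tmem14c (0.944) and Heatr5a (0.944). Mrc2, which encodes an endocytic collagen receptor, had a mean of 157 in WT and 105 in LC-/- KCs and of 162 in WT and 76.3 in LC-/- DETCs. Cd207 stood at rank 60 (0.888), Cd74 at rank 84 (0.874), H2-DMa at rank 280 (0.809), Ctss at rank 1433 (0.626) and H2-DMb1 at rank 3793 (0.356). These values describe libraries that share genotype and are no test.

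Levels of the members also differed between the populations within a genotype. Per length, in RPKM computed from the recovered reads, WT DETCs held most Ctss (18.6, 20.8 and 22.4) and Cd74 (13.2, 14.0 and 16.3), followed by H2-Eb1 at 2.03 to 3.63. WT KCs held most Cd74 (3.42, 5.03 and 3.77), ahead of H2-Eb1 at 1.64 to 3.77 and H2-DMb1 at 1.95 to 2.65 in each library, although the ranges of Cd74 and H2-Eb1 overlapped. In LC-/- KCs H2-DMb1 was highest at 2.29 to 2.92, above Cd74 at 0.701 to 1.62 and H2-Eb1 at 0.724 to 1.37, which overlapped. Between the WT populations limma called Ctss (log2 difference 6.31, DETC over KC), H2-Oa (4.16), Cd74 (2.06) and H2-Ab1 (1.15, adjusted p = 0.0274) higher in DETCs and H2-DMb1 (-1.70, adjusted p = 1.85e-04) lower. Of all tested genes 41.0% were called higher and 35.1% lower in that comparison, so calls of single members are common there. H2-Aa (0.47), H2-DMa (0.51) and H2-Eb1 (0.37) did not pass the threshold. In LC-/- mice Ctss (8.32), H2-Oa (3.79) and Cd74 (2.50) were higher and H2-DMb1 (-2.34) and H2-Eb1 (-1.45, adjusted p = 0.0122) lower in DETCs, against 38.1% of all genes called higher and 32.1% lower. Fitted values of Ctss there and of H2-Oa depend on the pseudocount, since their KC libraries are at 0.

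The part of the DETC levels that keratinocyte RNA could give was computed as the keratinocyte share of each DETC library times the KC mean of its genotype. For H2-Aa it was 6.90 to 8.36 in WT, against 51.3 to 81.7 measured. In LC-/- replicate 2 it was 7.16 for H2-Eb1, against 7.77 measured, and 15.6 for H2-DMb1, against 7.77 measured. For H2-Aa it was 2.30 and for H2-Ab1 3.57 in that library, against 4.85 measured for each. In LC-/- replicate 3 it was 4.50 for H2-Eb1, against 12.2 measured, and 9.81 for H2-DMb1, against 17.7 measured. There it was 1.45 for H2-Aa, against 9.95 measured, and 2.25 for H2-Ab1, against 18.8 measured. For Cd74 it gave 13.6 to 16.5 in WT DETCs. In LC-/- replicates 2 and 3 it gave 6.50 and 4.09 for Cd74, against 111 and 190 measured. For Ctss it gave at most 0.825 in any library. These values for Cd74 and Ctss lay far below the measured levels. For H2-DMb1 it gave 8.10 to 9.82 in WT DETCs, against 13.2 to 19.4 measured. The share is a median over 8 genes, which ran from 15.5% to 43.7% in LC-/- replicate 2. In that library the value for H2-DMb1 exceeded the level measured, so the computed values are rough. In the other direction, 9 DETC genes had a median level in KC libraries of 0% to 0.0243% of the DETC mean.

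Of 15 LC genes beside the members, Cd207, Itgax, Ccr7, Adgre1, Lyz2 and Clec4a2 were at 0 in all 3 LC-/- KC libraries, whereas Clec4a2 alone was at 0 in both LC-/- DETC libraries, and it was at 0 in WT KCs too. The Itgax, Ccr7, Adgre1 and Lyz2 counts in WT KCs were only 3 or 4 reads each over the 3 libraries. Some listed genes had the opposite sign. Ccr7 was called higher in LC-/- DETCs (log2 change 0.90, limma adjusted p = 0.0333), and Cd80 in KCs had a log2 value of 1.90 that was not called (adjusted p = 0.0889). The summed level of the 15 ran from 630 to 761 in WT and from 526 to 539 in LC-/- KCs, and from 3344 to 4177 in WT and from 3296 to 3309 in LC-/- DETCs. These sums are carried by genes that KCs or DETCs hold themselves, such as Sirpa in KCs and Cx3cr1 in DETCs. Without Sirpa, Cd83, Itgax, Cd86, Cd80, Ccr7 and Cx3cr1, the other 8 genes, Cd207 among them, summed to 17.4 to 49.2 in WT and 4.41 to 8.14 in LC-/- KCs, which did not overlap. In DETCs they summed to 51.2 to 112 in WT, against 5.83 in LC-/- replicate 2 and 67.4 in LC-/- replicate 3, where Lyz2 was at 36.5. The genes left out include Ccr7 and Cd80, which had the opposite sign. The sums hold Cd207 itself, at 6.15, 26.9 and 15.6 in WT KCs, so they are not a separate measure. Of 8 dermal dendritic cell or macrophage genes the sum was 0 to 1.86 in WT and 0 to 1.02 in LC-/- KCs, and 7.64 to 13.2 in WT and 3.88 to 12.2 in LC-/- DETCs. The part of RNA from these cells in the levels of the members was not tested.

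Other genes of the pathway were counted by list. Of 15 genes of class II transcription, which include the RFX and NF-Y subunits and the interferon-gamma receptor chains, 14 were tested. Rfx5, a subunit of the complex that binds the X box, was called higher in KCs, with 516, 571 and 530 in WT and 694, 774 and 775 in LC-/- (log2 fold change 0.47, adjusted p = 0.0260 by limma). Its change was thus opposite in sign to that of the chains. limma called none of the other 13 in KCs and 0 of the 14 in DETCs, where 2 had an unadjusted p under 0.05, and the medians were -0.02 and 0.13. These counts are read against the 5.37% higher and 1.85% lower in KCs and the 3.13% higher and 0.430% lower in DETCs over all tested genes, so counts of 0 or 1 are near the background. DESeq2 also called Ifngr1 in KCs, as did edgeR, and it called Creb1 and Ep300 in DETCs. Of 9 endolysosomal genes, among them the cathepsins Ctsb, Ctsd, Ctsh, Ctsl and Ctsz, all were tested and 0 called in either population by limma, DESeq2 or edgeR, with log2 fold changes between -0.23 and 0.27 in KCs and between -0.11 and 0.45 in DETCs. An unadjusted p under 0.05 by limma was reached by 2 of the 9 in KCs and by 1 in DETCs. Cd83 and March8, which act on the turnover of surface class II, were tested and called in neither population by limma, DESeq2 or edgeR, with 1 of them at an unadjusted limma p under 0.05 in each, and March1 did not pass the filter.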

How the data were processed

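Reads were trimmed, aligned to GRCm38 and counted per gene by the authors and scaled between libraries by the median-of-ratios method (DESeq2, per the labels). This deposited signal per gene is neither log transformed nor filtered. Read counts were recovered by dividing by the value of 1 read, and the largest distance from a whole read was 0.00118. Of 52550 gene identifiers 52403 matched symbols in GENCODE M21, from which positions and exonic lengths came. Genotypes were compared in R 4.3.3 by limma 3.58.1 with a trended eBayes fit and Benjamini-Hochberg adjustment over 14419 genes, on log2 of the normalized count plus 1. Alternatives were DESeq2 1.42.0 and edgeR 4.0.16 on recovered reads, pseudocounts of 0.5 and 8, no filter, a minimum mean of 10, no trend, quantile and TMM scaling, a fit over all 11 libraries, a replicate block and omission of each library. The fits were also run on simulated counts, with changes set only in genes above a minimum mean in both populations. Those runs give no measure for members with few reads, such as Ctss in KCs. The members and lists were chosen with earlier results of these data known. Genes named were the 10 members, Cd207, genes of the lists described and the 5 genes most like the classical chains. Intervals and floors cover counting error only.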

Additional observations from a re-analysis of the deposited data

Results flagged for a closer look

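By limma the change of Ctss with genotype differed between DETCs and KCs, with an interaction of 2.01 on the log2 scale (adjusted p = 0.0299) that depends on the pseudocount, since all LC-/- KC libraries were at 0. Ctss was at 4.10 to 5.57 in WT KCs, and at 383 to 500 in WT and 249 and 409 in LC-/- DETCs. With a pseudocount of 8 the interaction was 0.19 (adjusted p = 0.856), the upper end of a range that starts at 0.0102. The call was also lost without a filter, with quantile normalization and by edgeR, and of the 11 fits that omitted 1 library it was kept in 2, those without LC-/- KC replicate 2 and without LC-/- DETC replicate 2. The bound for KCs, at most 70.9% of the WT mean, lies next to the 73.4% retained in DETCs. It allows 3 reads in each LC-/- KC library and is therefore wide. Those libraries held 0 reads together, against 15 in WT KCs, and a bound on the pooled reads was not computed. The bound thus does not decide whether the fold differed.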

How the results depend on the processing

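The members called in KCs numbered 3, and 2 to 4 under every alternative that kept all libraries, but 0 to 1 with 1 library left out, 0 without LC-/- KC replicate 1. In DETCs 4 were called, 0 without a trend and 0 to 5 with 1 library left out, 0 without WT DETC replicate 3. The 1 member called by the interaction, Ctss, was not called (0) with a pseudocount of 8, without a filter, with quantile normalization or by edgeR, and 0 to 1 were called with 1 library left out. With the replicate block 0 members were called by the interaction, and the log2 interaction of H2-DMa turned from -0.04 to 0.030. The block gives no weight to LC-/- KC replicate 1, which has no DETC library, and leaving out that library alone gave the same 0.030. Same-numbered KC and DETC libraries had correlations of their deviations from the group means of -0.05, 0.07 and 0.12 in WT and 0.14 and 0.12 in LC-/-, so the numbers were not taken to pair them. The block changed the count of members in no other comparison.

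Signs changed only for values that were not called. With 1 library left out, the log2 value of H2-DMb1 in DETCs ranged from -0.97 to 0.12, the interaction of H2-DMa from -0.44 to 0.36, and the LC-/- DETC to KC difference from -0.76 to 0.14 for H2-Aa and from -1.40 to 0.36 for H2-Ab1. Quantile normalization moved the median of all genes from 0.07 to -0.24 between the WT and from 0.08 to -0.28 between the LC-/- populations. It gave DETC to KC differences of -0.038 for H2-DMa and -0.021 for H2-Eb1 in WT and of -0.37 for H2-DMa in LC-/-. Over all single-member values, 572 kept direction and call, 53 lost and 8 gained a call, and 13 changed sign. The cause was not tested.

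Over all genes the calls moved more. In KCs 775 were called higher and 267 lower, against 1205 and 552 by DESeq2, 1192 and 591 by edgeR, 1165 and 575 with a minimum mean of 10, and 5 and 0 without LC-/- replicate 1. In DETCs 452 and 62 were called, against 961 and 171 by DESeq2, 178 and 85 with quantile normalization, 42 and 0 without WT replicate 3 and 0 without a trend. By the interaction 89 and 26 differed, and 17 and 1 with the replicate block.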
